A study of Mus musculus with 15 samples.

Results

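The genes described here encode respiratory complexes II to V: the rows of the deposited table whose symbol starts with Uqcr, Cox4 to Cox8, Cox10 to Cox19 or Atp5, or is Sdha, Sdhb, Sdhc, Sdhd, Cyc1 or Cycs. The rule found 51 of 16042 genes. By their known roles 4 belong to complex II, 8 to complex III, 1 is the carrier cytochrome c, 16 belong to complex IV, 5 serve the assembly of complex IV and 15 belong to complex V. The 2 others, Atp5s and Cox4nb, were grouped apart, since later RefSeq symbols for them are Dmac2l and Emc8 and neither was counted as a subunit. Of these 51 genes 50 were tested, and Cox7b2, another isoform of Cox7b, was left out with a mean below 1 RPKM (reads normalised to the length of the gene model and to the depth of the library). It was listed at 0 to 1.65 RPKM over the 15 mice.

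RNA came from ventricles of mice aged 20 to 22 weeks, with the atria and part of the apex removed, 3 mice per group. The mice at 12, 24 and 72 hours and at 7 days carried MHCrtTA/TRECUGBP1. This is the rtTA activator under the heart-specific alpha myosin heavy chain promoter together with a tetracycline-inducible, Flag-tagged human Celf1 of the LYLQ isoform, an RNA-binding protein that regulates splicing and decay of messenger RNA. The control mice carried MHCrtTA alone. All 15 mice went without food for 2 to 3 hours and then ate doxycycline food at 2 g/kg, the controls for 72 hours, so the comparison at 72 hours is the only one matched for time on the drug, and every mouse in it carried the activator.

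Respiratory complexes pass electrons to oxygen and store the energy as a proton gradient across the inner mitochondrial membrane. Complex II feeds in electrons from succinate, complex III hands them to cytochrome c, complex IV reduces oxygen, and complex V, the ATP synthase, spends the gradient to make ATP. The heart depends on this supply for contraction and holds muscle-specific isoforms of several complex IV subunits. The subunits of complexes III to V that mitochondrial DNA encodes were not analysed here.

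The 20 columns of the table had an estimated depth of 16.5 to 52.3 M reads, with a median of 26.7 M. Celf1, listed as Cugbp1, had 219.7, 351 and 345 RPKM after 12 hours, 416, 295 and 423 RPKM after 24 hours, 159, 179 and 181 RPKM after 72 hours and 37.9, 30.9 and 29.5 RPKM after 7 days, against 33.8, 36.1 and 33.3 RPKM in controls. The check of the induced gene thus separated the first 3 times from control, while the mice labelled 7 days overlapped the controls, and the row holds transgene reads only as far as they aligned to the mouse gene. Column names carry 1 of 9 codes whose meaning is not stated. All controls have the same code, which among the induced mice occurs only in A3278 at 72 hours, and the codes of the 24 hour mice occur in no other group. At 7 days the summed level of 14 cardiomyocyte markers was 14456 to 17820 RPKM against 65739 to 68281 RPKM in controls, 23.9% of the control mean, with 13 of the 14 past the test as lower. Fibroblast markers summed to 2024 to 2693 RPKM at 7 days against 550.0 to 648 RPKM in controls, with 6 of 8 higher. Macrophage markers summed to 1004 to 1405 RPKM against 112 to 141 RPKM in controls, with 8 of 8 higher, and no marker of these lists was at 0 in all mice. Of the other lists, 5 of 7 endothelial and 3 of 3 erythroid markers were lower at 7 days, 4 of 6 smooth muscle markers were higher and 1 lower, and of 4 tested atrial markers 1, Nppa, was higher and 1 lower. The atrial markers, although the atria were removed, summed to 615 to 1279 RPKM at 7 days against 105 to 119 RPKM in controls, 866% of the control mean. Most of that sum was Nppa, with a mean of 940 RPKM at 7 days and 41.9 RPKM in controls. Sln fell from 16.0 to 2.63 RPKM, and the median of the 4 tested atrial markers was -0.66 at 7 days. At 72 hours the atrial sum was 61.5% of the control mean, with 2 of 4 lower. At 12, 24 and 72 hours the cardiomyocyte sum was 80.3%, 76.7% and 69.2% of control. The part of these shifts in the values below was not tested, and in ventricle tissue fewer cells of a type and less RNA per cell cannot be told apart.

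The members together summed to between 11945 and 14815 RPKM in the mice labelled 7 days, against 36097 to 38397 RPKM in controls, or 35.9% of the control mean. The sum was 31623 to 39627 RPKM at 12 hours, 30581 to 34814 RPKM at 24 hours and 23868 to 37010 RPKM at 72 hours, which is 91.9%, 86.4% and 78.2% of control. The values at 7 days lay clear of all other groups, and those at 12 and 72 hours overlapped control. The percentages at 12 and 24 hours depended on the scale of the libraries: with each mouse scaled by its median ratio, the sum was 119% of control at 12 hours and 100.3% at 24 hours. As a share of all RPKM in the table the members held 3.85 to 4.01% at 7 days and 8.02 to 8.65% in controls. Complex by complex, the sum at 7 days was 29.8% of control for complex II, 36.4% for complex III, 64.2% for cytochrome c, 34.6% for complex IV, 46.5% for its assembly genes and 36.0% for complex V.

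**Figure D1:**
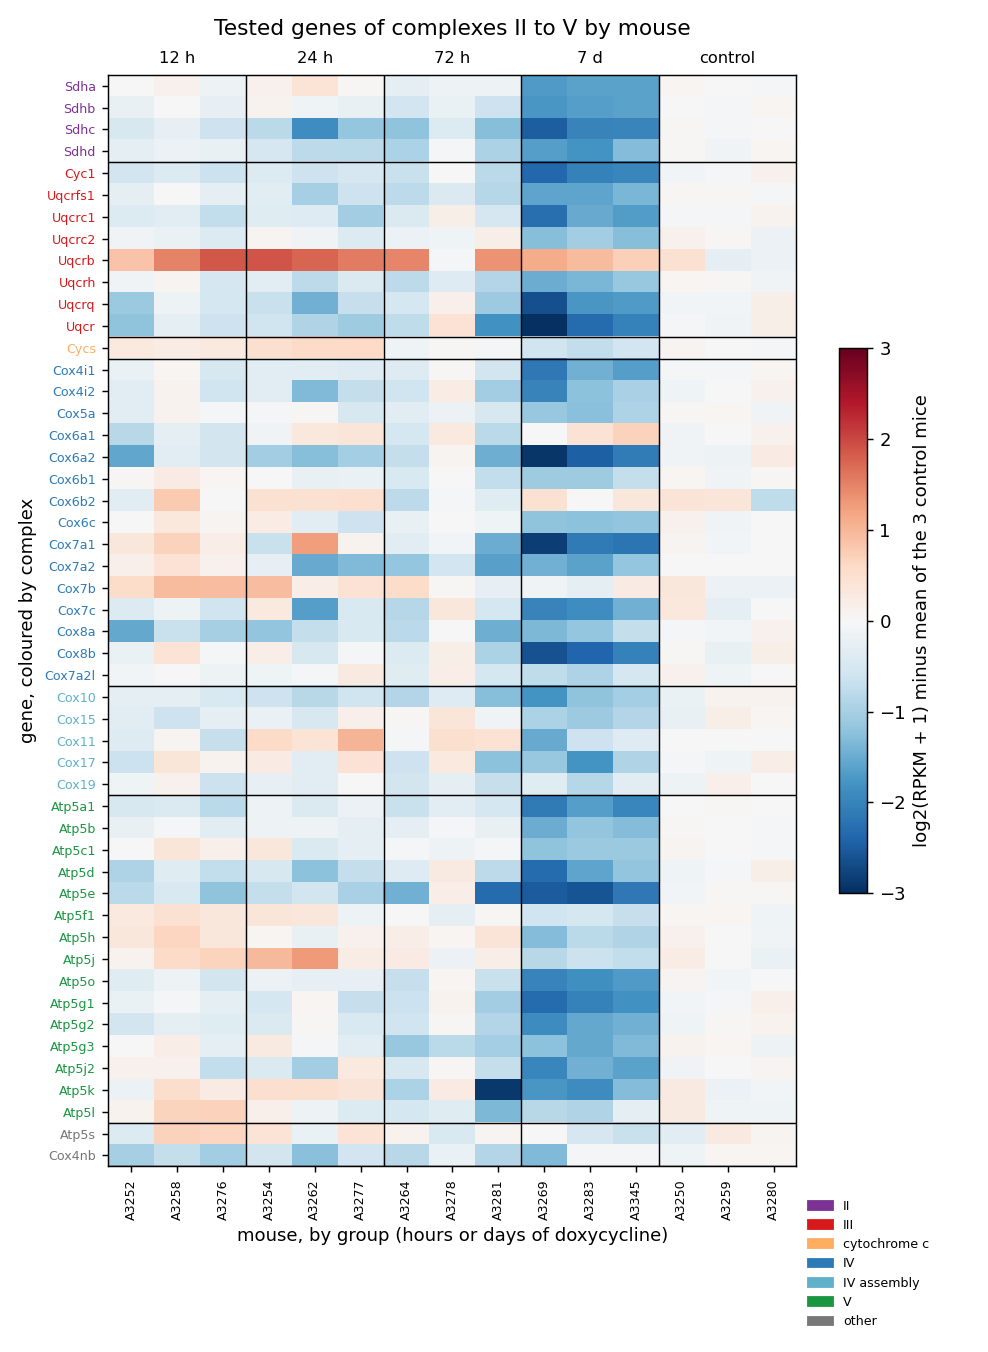
Heat map of the 50 tested genes (vertical axis, grouped and coloured by complex) in the 15 mice (horizontal axis, by group), as log2(RPKM + 1) minus the mean of the 3 control mice, with red above and blue below control. The columns at 7 days are blue for most genes, while Uqcrb is red in all 3 of them and Cox6a1 runs from 131 to 212 RPKM there against 122 to 142 RPKM in controls.

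In limma, with p-values adjusted by Benjamini and Hochberg over 10868 genes and a threshold of 0.05, 44 of 50 members fell and 1 rose at 7 days. Over all genes 28.2% fell and 26.7% rose. Differences are given as log2 differences of log2(RPKM + 1) with the moderated standard error of the fit, for 3 mice against 3. The median member stood at -1.35 and the median of all genes at -0.03. Members that fell were 4 of 4 in complex II, 7 of 8 in complex III, the 1 gene of cytochrome c, 12 of 15 in complex IV, 5 of 5 of its assembly genes and 15 of 15 in complex V. Adjusted p-values of the 45 called members ran from 2.00e-07 to 0.0470 in limma. Cox6a1, Cox6b2, Cox7b, Atp5s and Cox4nb did not pass, and Uqcrb was higher. No mouse at 7 days has the code of the controls. A further fit held the code as a term, and in it A3278 alone links the controls to the other codes. In that fit 27 members fell and 1, Cox6a1, rose, with a median of -0.92. Over all 10868 genes the same fit called 1069 lower and 2102 higher, with a median of 0.25. The sign of the 45 called members was the same there except for Uqcrb, at -0.58, and Cox8a, at 0.14. Of these 45, 18 did not pass in that fit: Uqcrb, Uqcrq and Uqcr of complex III, Cox4i2, Cox6b1, Cox7c, Cox8a and Cox7a2l of complex IV, the 5 assembly genes, Atp5d, Atp5e, Atp5k and Atp5l of complex V, and Cycs. Among them Atp5k was at -0.17 (adjusted p 0.869 in limma), against -1.65 without the term.

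**Figure D2:**
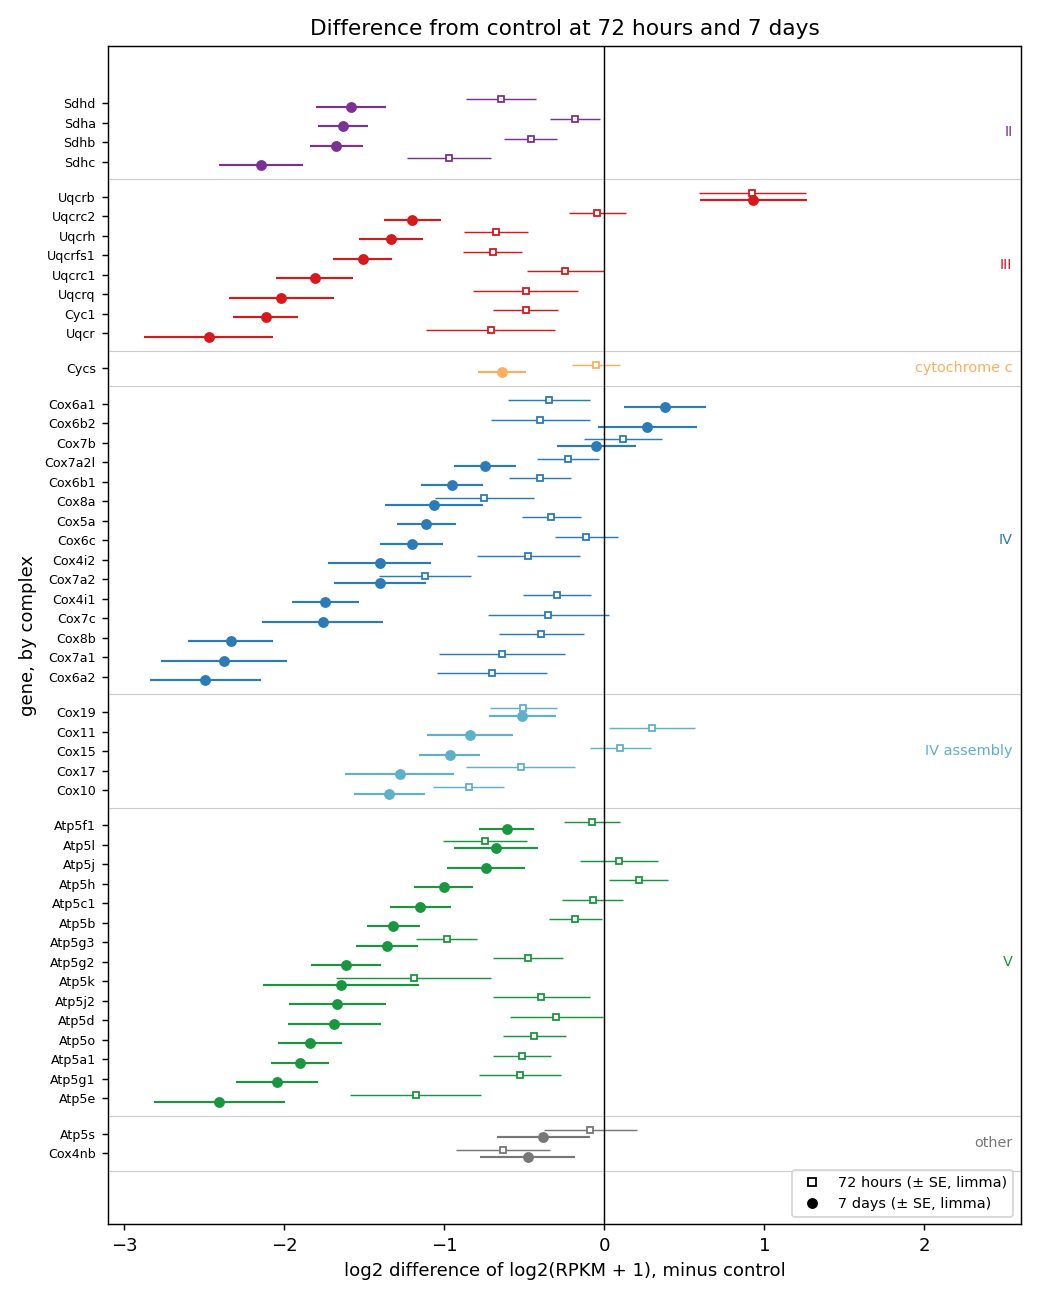
Log2 difference from control (horizontal axis, difference of log2(RPKM + 1)) for each tested gene (vertical axis, by complex) at 72 hours (open squares) and 7 days (filled circles), with bars of 1 standard error from limma. At 7 days the values run from -2.49 for Cox6a2 to 0.93 for Uqcrb, and at 72 hours from -1.19 for Atp5k to 0.92 for Uqcrb.

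Complex II, which is also the succinate dehydrogenase of the citric acid cycle, fell in all its 4 parts at 7 days, and the 2 membrane anchors also passed as lower at 24 hours. Sdha, the flavoprotein that oxidises succinate, had 479.6, 526 and 433 RPKM after 12 hours, 525, 635 and 493 after 24 hours, 402, 433 and 436 after 72 hours and 148, 157 and 157 after 7 days, against 499.5, 478 and 465 RPKM in controls. All its values at 7 days lay below the other groups, a difference of -1.63 ± 0.15 from control (adjusted p 2.00e-07 in limma), while at 72 hours it stood at -0.18 ± 0.15 and did not pass. Sdhb, the iron-sulphur subunit, had 553, 651 and 546 RPKM after 12 hours, 702, 591 and 559 after 24 hours, 436, 567 and 421 after 72 hours and 191, 206 and 211 after 7 days, against 647, 625 and 674 RPKM in controls. It was at -1.68 ± 0.17 at 7 days. Sdhc, an anchor that helps bind ubiquinone, had 286, 337 and 259 RPKM after 12 hours, 228, 109 and 178 after 24 hours, 171, 299 and 164 after 72 hours and 71.1, 99.1 and 101 after 7 days, against 412, 386 and 399 RPKM in controls. Each induced mouse was below each control, and it fell at 24 hours (-1.28 ± 0.26), 72 hours (-0.97 ± 0.26) and 7 days (-2.15 ± 0.26). Sdhd, the other anchor, had 216, 229.8 and 221 RPKM after 12 hours, 181, 150.0 and 147 after 24 hours, 133, 254 and 133 after 72 hours and 81.8, 73.6 and 104 after 7 days, against 265, 242 and 269.6 RPKM in controls. It fell at 24 hours (-0.70 ± 0.22) and 7 days (-1.59 ± 0.22), and at 72 hours it did not pass (-0.65 ± 0.22, adjusted p 0.0653 in limma). Without control mouse A3280, or without A3262 of the 24 hour group, Sdhc and Sdhd did not pass at 24 hours. A3278 had the highest values of both genes at 72 hours, at 299 and 254 RPKM.

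Complex III fell in 7 of 8 members at 7 days, among them the 2 redox subunits that were tested and both core proteins. Its accessory subunit Uqcrb passed as higher, but stood at -0.58 with the code as a term. Cyc1, cytochrome c1, had 459, 513 and 436 RPKM after 12 hours, 518, 444 and 486 after 24 hours, 430.4, 692 and 389 after 72 hours and 132, 166 and 177 after 7 days, against 645, 668 and 748 RPKM in controls. The 3 values at 7 days were the lowest of the 15 (-2.12 ± 0.20, adjusted p 2.26e-07 in limma). Uqcrfs1, the Rieske iron-sulphur protein, had 425, 515 and 426 RPKM after 12 hours, 408, 259 and 339 after 24 hours, 299, 381 and 284 after 72 hours and 173, 171 and 201 after 7 days, against 531, 529.9 and 495 RPKM in controls. It fell at 24 hours (-0.65 ± 0.19), 72 hours (-0.70 ± 0.19) and 7 days (-1.51 ± 0.19). The core proteins Uqcrc1 and Uqcrc2, which frame the matrix side of the complex, stood at -1.81 ± 0.24 and -1.20 ± 0.18 at 7 days. Uqcrc1 had 176, 296 and 264 RPKM at 7 days against 815, 816 and 904 RPKM in controls. Uqcrc2 had 206, 243 and 205 RPKM at 7 days against 548, 516 and 446 RPKM in controls. Neither passed at an earlier time.

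Among the accessory subunits, Uqcrh, the hinge protein that contacts cytochrome c1, had 796, 905 and 602 RPKM after 12 hours, 679.9, 489.5 and 633 after 24 hours, 496, 656 and 465 after 72 hours and 300.4, 330.0 and 385 after 7 days, against 888, 875 and 792 RPKM in controls. It fell at 72 hours (-0.67 ± 0.20) and 7 days (-1.33 ± 0.20). Uqcrq had 187, 349 and 359.8 RPKM at 7 days against 1098, 1096 and 1308 RPKM in controls. Uqcr, a small subunit with the later symbol Uqcr11, had 109, 188 and 226 RPKM at 7 days against 891, 861 and 1056 RPKM in controls. The differences at 7 days were -2.02 ± 0.33 for Uqcrq and -2.47 ± 0.40 for Uqcr, the lowest of the complex, and with the code as a term they were -1.05 and -0.90 and did not pass. Uqcrb (chromosome 13, 67001553 to 67006314 on the minus strand of NCBIM37), a subunit near the ubiquinone site, had 457, 709.8 and 917 RPKM after 12 hours, 935, 839 and 737 after 24 hours, 691, 244 and 643 after 72 hours and 547, 487 and 414 after 7 days, against 348, 205 and 222 RPKM in controls. It passed the test as higher at 12 hours (1.41 ± 0.34), 24 hours (1.73 ± 0.34) and 7 days (0.93 ± 0.34), and the call at 7 days was lost without control mouse A3259 or A3280 or without A3269 or A3283 of the 7 day group. A3278, the induced mouse with the code of the controls, had 244 RPKM and lay within the control range, while the 2 other mice at 72 hours had 691 and 643 RPKM. Between columns of the same code Uqcrb was lower at 7 days than at 72 hours in 3 of 3 codes, at -0.60, -0.45 and -0.51. It was also lower at 7 days than at 12 hours within the codes that those groups share, at -1.12 and -0.70. The genome also holds 3 unspliced copies of its transcript (at least 95% identity over 80% of the length) and a gene on the opposite strand that overlaps its exons, and with no strand stated for the reads the source of its signal is uncertain.

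Cycs, which encodes the cytochrome c that carries electrons between complexes III and IV, was higher at 24 hours and lower at 7 days. It had 838, 809 and 837 RPKM after 12 hours, 956, 1022 and 1048 after 24 hours, 625, 709.8 and 655 after 72 hours and 454, 408 and 462 after 7 days, against 728, 679 and 657 RPKM in controls. The values at 12 and 24 hours lay above all controls and those at 7 days below them. The difference was 0.27 ± 0.15 at 12 hours, which did not pass, 0.55 ± 0.15 at 24 hours (adjusted p 0.0236 in limma), -0.05 ± 0.15 at 72 hours and -0.64 ± 0.15 at 7 days. The call at 24 hours was lost without control mouse A3259 or A3280, without A3277 or A3262 of that group, with the first column of each mouse, and with the GC correction. That at 7 days was lost with quantile normalization, at -0.23 (adjusted p 0.212 in limma), and with the code as a term, at -0.59 (adjusted p 0.0777 in limma).

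Complex IV fell in 12 of 15 tested subunits at 7 days. Cox4i1, the regulatory subunit of the widely expressed form and the fourth highest member in controls, had 1972, 2336 and 1608 RPKM after 12 hours, 1771, 1817 and 1704 after 24 hours, 1708, 2312 and 1540.0 after 72 hours and 508, 823 and 719 after 7 days, against 2186, 2202 and 2354 RPKM in controls. All values at 7 days lay below all others (-1.74 ± 0.21, adjusted p 3.34e-06 in limma). Its isoform Cox4i2, known for its high level in lung, had 2.33, 4.73 and 5.84 RPKM at 7 days against 11.2, 12.4 and 13.8 RPKM in controls, at -1.40 ± 0.32. Cox5a, a subunit on the matrix side, had 325, 300.015 and 376 RPKM at 7 days against 739, 754 and 667 RPKM in controls, a difference of -1.11 ± 0.18. Cox6b1, on the side facing cytochrome c, had 407, 409 and 525 RPKM at 7 days against 895, 799.5 and 887 RPKM in controls and stood at -0.95 ± 0.19, so these 4 subunits ranged from -1.74 to -0.95. The small membrane subunits fell as well. Cox6c had 438, 430.3 and 446 RPKM at 7 days against 1105, 932 and 1000.4 RPKM in controls, at -1.20 ± 0.20. Cox7c had 361, 397 and 533 RPKM at 7 days against 1784, 1180.4 and 1419 RPKM in controls, at -1.76 ± 0.38. Cox7a2l, a relative of Cox7a known for joining complexes III and IV, had 102, 90.4 and 119.9 RPKM at 7 days against 191, 159 and 174 RPKM in controls (-0.74 ± 0.19). In none of these 7 genes did the groups at 7 days and control overlap. How often that held over all genes was not counted, so it describes these 7 genes alone. By the limma test, a different measure, 28.2% of all genes fell at 7 days. With the code as a term Cox4i2, Cox6b1, Cox7c and Cox7a2l did not pass, at -0.39, -0.47, -0.81 and -0.26.

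Cox7b and Cox6b2 did not pass at 7 days. Cox7b, an X-linked small subunit, had 973, 1285 and 1260.2 RPKM after 12 hours, 1257, 758 and 897 after 24 hours, 967, 686 and 562 after 72 hours and 613, 544 and 792 after 7 days, against 846, 592 and 586 RPKM in controls. It passed at 12 hours (0.81 ± 0.25, adjusted p 0.0408 in limma), and at 7 days its values overlapped control (-0.05 ± 0.25). Its level differed with the code within a mouse: A3283 at 7 days had 252 RPKM in its first column and 836 RPKM in its second, of another code. Within codes Cox7b at 7 days stood at -0.84 and -0.82 against 12 hours and at -1.19, -0.88 and 0.56 against 72 hours, and with the code as a term it was at -0.55 against control (adjusted p 0.424 in limma). Cox6b2, known as the isoform of the testis, was listed at 0.265 to 2.76 RPKM over all mice and passed no comparison.

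Subunits Cox6a, Cox7a and Cox8 of complex IV each come in a heart and skeletal muscle isoform and a widely expressed one, and at 7 days the ratio of the muscle isoform to the wide one was lower in all 3 pairs. Cox6a2 (chromosome 7, 135348950 to 135349880), the muscle isoform of Cox6a and the highest member in controls, had 974, 2264 and 1953 RPKM after 12 hours, 1383, 1179 and 1405 after 24 hours, 1730.0, 3019.9 and 1032 after 72 hours and 375, 522 and 661 after 7 days, against 2670.2, 2589 and 3366 RPKM in controls. It fell at 24 hours (-1.11 ± 0.34) and 7 days (-2.49 ± 0.34). Cox6a1 (chromosome 5, 115795651 to 115798990), the widely expressed isoform, had 73.2, 107 and 88.5 RPKM after 12 hours, 121, 163 and 169 after 24 hours, 89.97, 161 and 74.5 after 72 hours and 131, 178 and 212 after 7 days, against 122, 129.8 and 142 RPKM in controls. Its values at 7 days overlapped control (0.38 ± 0.26, adjusted p 0.223 in limma), and against 72 hours it was higher (0.73 ± 0.26, adjusted p 0.0286 in limma). Within codes the difference of Cox6a1 between 7 days and 72 hours was 1.19, 0.87 and 1.55. The level of Cox6a2 was 2.97-fold that of Cox6a1 at 7 days and 21.8-fold in controls, as geometric means of 3 mice. The log2 ratio was 1.52 to 1.64 at 7 days and 4.32 to 4.57 in controls, with no overlap. At 24 hours it was 2.86 to 3.52, also below all controls, and at 72 hours 3.79 to 4.27.

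Cox7a1, the muscle isoform of Cox7a, had 1611, 2029 and 1454 RPKM after 12 hours, 794, 3002 and 1358 after 24 hours, 1009, 1187 and 446 after 72 hours and 176, 292 and 278 after 7 days, against 1329.7, 1186 and 1280.2 RPKM in controls. Its 24 hour mice were the most spread, with A3262 at 3002 RPKM, and only the values at 7 days passed (-2.38 ± 0.39). The wide isoform Cox7a2 had 605, 728 and 597 RPKM after 12 hours, 458, 190.0 and 218 after 24 hours, 242, 367 and 175 after 72 hours and 199.6, 177 and 241 after 7 days, against 551, 541 and 536 RPKM in controls. It fell at 24 hours (-1.02 ± 0.29), 72 hours (-1.12 ± 0.29) and 7 days (-1.40 ± 0.29). The log2 ratio of Cox7a1 to Cox7a2 was -0.18 to 0.72 at 7 days and 1.13 to 1.27 in controls. It was 1.36 to 2.06 at 72 hours, above all controls, so the ratio lay above control at that time and below it at 7 days.

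Cox8b, the muscle isoform of Cox8, had 668, 1029.6 and 754 RPKM after 12 hours, 882, 555 and 735 after 24 hours, 579, 868 and 402 after 72 hours and 126, 148 and 189 after 7 days, against 794, 665 and 870.1 RPKM in controls. It fell at 7 days (-2.34 ± 0.26, adjusted p 1.52e-06 in limma). Cox8a, the wide isoform, had 55.7, 102 and 80.8 RPKM after 12 hours, 71.1, 98.3 and 118 after 24 hours, 93.3, 165 and 58.3 after 72 hours and 63.8, 72.9 and 99.3 after 7 days, against 156, 155 and 179 RPKM in controls. It passed as lower at 12 hours (-1.07 ± 0.31) and 7 days (-1.07 ± 0.31), and at both times its sign turned in the fit that holds the code as a term, to 0.29 and 0.14. The log2 ratio of Cox8b to Cox8a was 0.93 to 1.02 at 7 days and 2.10 to 2.34 in controls. It was 3.22 to 3.58 at 12 hours, 2.496 to 3.63 at 24 hours and 2.40 to 2.79 at 72 hours, above all controls at each of these times. Its mean log2 difference from control at 72 hours was 0.36, and 0.09 with only the first column of each mouse, while the difference at 24 hours was 0.68, and 0.32 without A3254. In an exact two-sided permutation test over mice each of these 3 ratios had a p of 0.1 at 7 days, the smallest that 3 against 3 can give, and 0.218 adjusted over 24 tests of 6 pairs at 4 times. A ratio within a library does not depend on the scaling of that library. For a mouse with 2 columns the ratio is that of the means over its columns, which can differ in it. At 7 days A3283 had 120 and 175 RPKM of Cox8b in its first and second column, against 95.6 and 50.3 RPKM of Cox8a. In A3345 both genes were lower in the second column, at 211 and 167 RPKM for Cox8b and 110 and 88.9 RPKM for Cox8a. The ranges over mice leave out this spread. The ratio of Cox4i2 to Cox4i1, in the same permutation test, overlapped control at each time, at a mean log2 difference of 0.11 at 7 days.

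**Figure D3:**
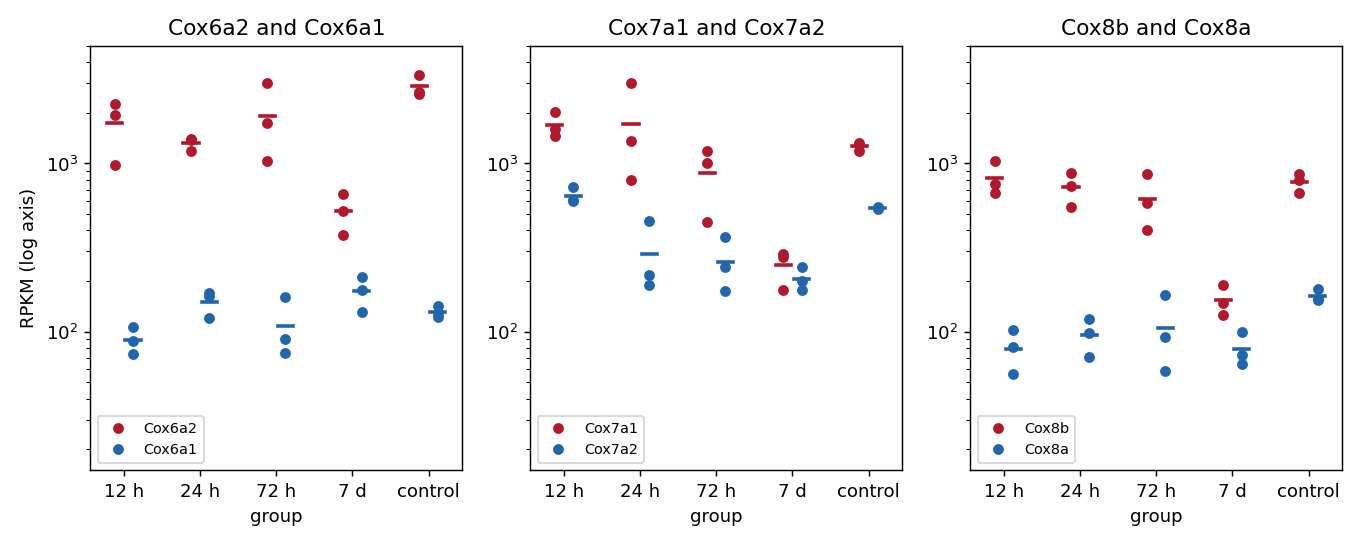
RPKM (vertical log axis) of the muscle isoform (red) and the widely expressed isoform (blue) of 3 complex IV subunits by group (horizontal axis), with 1 point per mouse and a bar at the mean. At 7 days Cox6a2, Cox7a1 and Cox8b lie below their controls, while Cox6a1 overlaps them at 131 to 212 RPKM against 122 to 142 RPKM.

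The windows from 250 bases before to 50 bases after the start of transcription were read from RefSeq (GRCm38.p6), in which 39 of 51 members had at least 1 window, 42 windows in all. Windows of 3 genes are shown because the genes differ in how they moved: Cox6a1 (chr5:115348909-115349208, minus strand), Cox8a (chr19:7217567-7217866, minus strand) and the muscle isoform Cox8b (chr7:140900397-140900696, minus strand). Capitals mark matches on either strand to 5 motifs. That of NRF1, a factor known for driving respiratory genes, was read as GCGC, then any base, then TGCGC. That of ETS factors was CCGGAAG. YY1, another factor known at such promoters, was searched with the letters GATGGCG. For the ERR receptors the search used the letters AAGGTCA. The core promoter element known as the TATA box was searched as TATAAA.
Cox6a1: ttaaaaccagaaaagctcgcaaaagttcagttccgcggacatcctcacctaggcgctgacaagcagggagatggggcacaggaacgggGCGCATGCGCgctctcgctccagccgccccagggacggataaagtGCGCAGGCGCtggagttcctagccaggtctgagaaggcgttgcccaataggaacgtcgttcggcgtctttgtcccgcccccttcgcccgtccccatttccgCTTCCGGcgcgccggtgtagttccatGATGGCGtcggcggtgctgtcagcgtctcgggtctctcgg
Cox8a: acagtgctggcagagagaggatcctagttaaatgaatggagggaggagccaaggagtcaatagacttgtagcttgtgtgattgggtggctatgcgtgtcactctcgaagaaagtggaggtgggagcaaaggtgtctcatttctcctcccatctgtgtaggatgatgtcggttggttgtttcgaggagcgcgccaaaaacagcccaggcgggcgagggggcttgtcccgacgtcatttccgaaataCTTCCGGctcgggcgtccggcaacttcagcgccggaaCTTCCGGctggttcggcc
Cox8b: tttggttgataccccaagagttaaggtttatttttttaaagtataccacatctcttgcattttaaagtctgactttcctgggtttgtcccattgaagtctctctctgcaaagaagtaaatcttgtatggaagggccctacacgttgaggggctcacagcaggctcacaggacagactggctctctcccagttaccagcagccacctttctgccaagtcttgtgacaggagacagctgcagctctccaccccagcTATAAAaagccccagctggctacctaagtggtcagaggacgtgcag
The Cox6a1 window holds 2 matches to NRF1, 1 to ETS and 1 to YY1, the Cox8a window 2 to ETS, and the Cox8b window 1 to TATA. The windows of Cox7a1 and Cox7a2 held none of the 5. Over the 42 windows of members 23.8% held NRF1, 33.3% ETS, 14.3% YY1, 11.9% ERR and 9.52% TATA, and over all 32851 windows 4.60%, 8.86%, 3.49%, 4.72% and 13.6%. A match is a match of letters, and binding was not measured.

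All 5 assembly genes of complex IV fell at 7 days, and none of the 5 passed with the code as a term. Cox10 and Cox15 make the haem A of the enzyme. Cox10 had 7.13, 11.2 and 12.9 RPKM at 7 days against 23.6, 29.3 and 29.5 RPKM in controls. Cox15 had 9.38, 8.32 and 9.88 RPKM at 7 days against 16.1, 21.4 and 19.6 RPKM in controls. Cox10 also fell at 24 hours (-0.68 ± 0.22) and 72 hours (-0.85 ± 0.22), and at 7 days the 2 genes stood at -1.34 ± 0.22 and -0.97 ± 0.19, and at -0.62 and -0.62 with the code as a term. The call of Cox10 at 24 hours was lost in 17 of 23 alternatives, which ran up to -0.31, and that at 72 hours in 6 of 24. Cox15 was at 0.10 ± 0.19 at 72 hours, so its step to 7 days was -1.07 ± 0.19 (adjusted p 0.000263 in limma). Cox11, which delivers copper to the catalytic core, had 6.77, 9.88 and 5.35 RPKM after 12 hours, 14.2, 12.6 and 19.8 after 24 hours, 8.95, 13.2 and 12.9 after 72 hours and 2.57, 5.61 and 6.87 after 7 days, against 9.29, 9.20 and 9.16 RPKM in controls. It was higher in the 24 hour mice than in the 12 hour mice, the 1 member that was (1.001 ± 0.27, adjusted p 0.0467 in limma), and it fell at 7 days (-0.84 ± 0.27). That call was lost without A3269 (-0.50, adjusted p 0.0991 in limma) and with the code as a term (-0.32, adjusted p 0.545 in limma). Cox17, a copper carrier, had 84.4, 53.4 and 99.2 RPKM at 7 days against 178, 170.4 and 215 RPKM in controls, at -1.28 ± 0.34. Cox19 had 31.5, 22.3 and 32.7 RPKM at 7 days against 36.7, 45.5 and 41.4 RPKM in controls, at -0.51 ± 0.21. The call of Cox19 was lost in 14 of 24 alternatives, and with the code as a term Cox17 was at -0.32 and Cox19 at -0.26.

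Complex V fell in 15 of 15 members at 7 days, from the catalytic head to the ring in the membrane. Atp5b, the catalytic beta subunit, had 2158, 2407 and 1974 RPKM after 12 hours, 2249, 2245 and 2076 after 24 hours, 2027, 2452 and 2157 after 72 hours and 897, 1100.0 and 1016 after 7 days, against 2571, 2501 and 2436 RPKM in controls. It was the highest member at 7 days and the second highest in controls, and it passed at 7 days alone (-1.32 ± 0.17, adjusted p 4.65e-06 in limma). Atp5a1, the alpha subunit, had 1753, 1798 and 1398 RPKM after 12 hours, 2170.3, 1798 and 2144 after 24 hours, 1528, 1909 and 1680.2 after 72 hours and 562, 773 and 628 after 7 days, against 2397, 2482 and 2411 RPKM in controls. It fell at 12 hours (-0.57 ± 0.18, adjusted p 0.0478 in limma) and 7 days (-1.90 ± 0.18), and the median of all genes stood at -0.30 at 12 hours. The central stalk turns with the ring. Its gamma subunit Atp5c1 had 315, 333 and 334 RPKM at 7 days against 771, 716 and 697 RPKM in controls. The delta subunit Atp5d had 118, 196 and 257 RPKM at 7 days against 537, 563 and 665 RPKM in controls. The epsilon subunit Atp5e had 197, 184 and 253 RPKM at 7 days against 1060.0, 1137 and 1148 RPKM in controls. Their differences were -1.15 ± 0.19, -1.69 ± 0.29 and -2.41 ± 0.41, and with the column code as a term only Atp5c1 of the 3 passed.

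The peripheral stalk holds the head still, and its 4 genes fell at 7 days. Atp5f1 (subunit b) had 427, 446 and 398 RPKM at 7 days against 679.7, 671 and 595 RPKM in controls, at -0.61 ± 0.17. Atp5o, the subunit that confers sensitivity to oligomycin, had 288, 324 and 358 RPKM at 7 days against 1220.0, 1093 and 1156 RPKM in controls, at -1.84 ± 0.20. Atp5h (subunit d) had 1106, 1364 and 1109 RPKM after 12 hours, 911, 750.3 and 954 after 24 hours, 1000.3, 907 and 1135 after 72 hours and 354, 495 and 465 after 7 days, against 947, 866 and 805 RPKM in controls. It lay above all controls at 12 hours without passing, and fell at 7 days (-1.01 ± 0.18). Atp5j, coupling factor 6, had 524, 733 and 777 RPKM after 12 hours, 956, 1193 and 569.5 after 24 hours, 582, 430.3 and 561 after 72 hours and 271, 314 and 289.9 after 7 days, against 572, 480.4 and 423 RPKM in controls. It passed as higher at 24 hours (0.83 ± 0.24, adjusted p 0.0322 in limma) with overlapping groups, and fell at 7 days (-0.74 ± 0.24), a call lost with other scalings of the libraries and without control mouse A3250. The small subunits next to the ring fell at 7 days too. Atp5j2 (f) had 332, 470.4 and 419.5 RPKM at 7 days against 1194, 1306 and 1362 RPKM in controls, at -1.67 ± 0.30. Atp5l (g) had 300.02, 285 and 441 RPKM at 7 days against 644, 492 and 488 RPKM in controls, at -0.68 ± 0.26, a call lost in 9 of 24 alternatives, among them the omission of any 1 control mouse. Atp5k (e) had 571, 936 and 769.8 RPKM after 12 hours, 900.0, 906 and 844 after 24 hours, 338, 768 and 87.0 after 72 hours and 194, 174 and 260.4 after 7 days, against 777, 571 and 613 RPKM in controls. Its 3 mice at 72 hours ranged from 87.0 to 768 RPKM, and it passed at 7 days (-1.65 ± 0.48) and in the step from 24 to 72 hours (-1.64 ± 0.48, adjusted p 0.0392 in limma). The transcript of Atp5l has 10 unspliced copies in the genome, that of Atp5h 4, of Atp5o 1 and of Atp5k 1, so reads of these 4 genes can be shared with copies. Of complex III, Uqcr has 2 such copies and Uqcrh 1. In 13 members an exon overlaps that of another gene, on the same strand for Cox17 (Popdc2) and Atp5o (Donson), and on the opposite strand for others such as Cox6a2 (Itgad), Cox5a and Cox6c, and without strand such reads cannot be told apart.

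The membrane ring of complex V is built from a single kind of protein, subunit c, which 3 genes encode with different import sequences. The coding ends of Atp5g1 (chr11:95930166-95936984), Atp5g2 (chr15:102493299-102501478) and Atp5g3 (chr2:73746504-73749383), all on the minus strand of NCBIM37, share 78 residues. They are shown because the genes encode the same ring and differ in the times at which they passed the test. Capitals mark the 63 of 234 bases at which the 3 are not all alike.
Atp5g1: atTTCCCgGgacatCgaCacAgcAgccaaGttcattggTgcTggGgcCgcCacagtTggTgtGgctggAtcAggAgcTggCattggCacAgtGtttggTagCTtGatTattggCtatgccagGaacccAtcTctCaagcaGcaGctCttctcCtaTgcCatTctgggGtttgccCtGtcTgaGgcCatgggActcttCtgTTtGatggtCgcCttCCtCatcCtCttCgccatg
Atp5g2: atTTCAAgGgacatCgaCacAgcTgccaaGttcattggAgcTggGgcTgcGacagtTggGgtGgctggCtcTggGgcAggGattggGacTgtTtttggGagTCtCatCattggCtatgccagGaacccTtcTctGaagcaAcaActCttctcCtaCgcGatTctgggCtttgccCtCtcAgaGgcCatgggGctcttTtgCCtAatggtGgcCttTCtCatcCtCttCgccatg
Atp5g3: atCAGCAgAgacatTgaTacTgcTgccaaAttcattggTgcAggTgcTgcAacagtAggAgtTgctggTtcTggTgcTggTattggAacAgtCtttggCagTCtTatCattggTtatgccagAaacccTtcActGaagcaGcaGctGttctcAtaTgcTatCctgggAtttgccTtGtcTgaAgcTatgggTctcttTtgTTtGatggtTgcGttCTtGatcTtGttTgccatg
Pairwise identity over these bases was 84.6% for Atp5g1 and Atp5g2, 78.6% for Atp5g1 and Atp5g3, and 77.4% for Atp5g2 and Atp5g3. Atp5g3 had 1310.0, 1534 and 1101 RPKM after 12 hours, 1595, 1267 and 1075 after 24 hours, 606, 758 and 655 after 72 hours and 564, 461 and 532 after 7 days, against 1433, 1375 and 1189.8 RPKM in controls. It fell at 72 hours (-0.99 ± 0.19, adjusted p 0.0039 in limma) and at 7 days (-1.36 ± 0.19), and A3278 was below the controls there at 758 RPKM. Atp5g1 had 1198, 1339 and 1131 RPKM after 12 hours, 947, 1432 and 849.9 after 24 hours, 877, 1463 and 668 after 72 hours and 276, 335 and 388 after 7 days, against 1290.2, 1307 and 1515 RPKM in controls. Atp5g2, which has 3 unspliced copies in the genome, had 244, 289 and 275 RPKM after 12 hours, 262, 364 and 259 after 24 hours, 233, 365 and 195 after 72 hours and 95.7, 123 and 131 after 7 days, against 327, 363 and 381 RPKM in controls. Both fell at 7 days, at -2.05 ± 0.26 for Atp5g1 and -1.61 ± 0.22 for Atp5g2, and at 72 hours neither passed. The log2 ratio of Atp5g1 to Atp5g3 was lower in all 3 mice at 7 days than in the controls, at a mean difference of -0.69 (exact two-sided permutation p 0.1, adjusted 0.218), and at 72 hours it overlapped them. The ratio of Atp5g2 to Atp5g3 overlapped control at all 4 times.

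The 2 genes grouped apart from the complexes did not pass at 7 days. Atp5s had 7.64, 5.08 and 4.41 RPKM at 7 days against 5.77, 9.27 and 8.07 RPKM in controls and passed no comparison. Its difference from control at 7 days was -0.38 ± 0.29, and -0.91 with the code as a term, where the median member was at -0.92. Within codes Atp5s at 7 days stood at -0.48, -0.18 and -0.80 against 72 hours. Cox4nb, a neighbour of Cox4i1 on chromosome 8, had 5.58, 7.03 and 5.30 RPKM after 12 hours, 7.88, 4.48 and 7.85 after 24 hours, 6.40, 10.3 and 6.16 after 72 hours and 4.2, 11.6 and 11.6 after 7 days, against 11.1, 12.5 and 12.7 RPKM in controls. It passed as lower at 12 hours (-0.92 ± 0.30, adjusted p 0.0493 in limma), a call lost in 17 of 24 alternatives.

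At the early times few members passed. At 12 hours 2 rose (Uqcrb and Cox7b) and 3 fell (Cox8a, Atp5a1 and Cox4nb) of 50, against 0.524% and 12.7% of all genes, and the median member was at -0.18 where all genes were at -0.30, with 34 of 50 members below 0. With the column code as a term the median member at 12 hours was at 0.26 and 5 of 50 were below 0. All genes had a median of -0.05 in that fit, and how many of them were below 0 was not counted. At 24 hours 3 rose (Uqcrb, Cycs and Atp5j) and 6 fell (Sdhc, Sdhd, Uqcrfs1, Cox6a2, Cox7a2 and Cox10), against 5.38% and 10.6% of all genes, with medians of -0.19 for both. Leaving out control mouse A3280 ended all member calls at both times (0 called). Over all 10868 genes it left 137 calls at 12 hours and 39 at 24 hours, against 1432 and 1736 with all mice. By an unadjusted p under 0.05 in limma without A3280, 2 members were higher and 3 lower at 12 hours, and 4 higher and 10 lower at 24 hours. Counts by unadjusted p were made for members alone, here and below, so no share of all genes stands beside them. Leaving out A3278 gave 3 members higher and 14 lower at 24 hours, and 791 and 1791 of all genes. With median-ratio scaling the members split into 4 higher and 0 lower at 12 hours, and 4 higher and 2 lower at 24 hours. All genes split into 73 higher and 156 lower at 12 hours, and 923 and 743 at 24 hours. With the GC correction the members split into 2 higher and 0 lower at 12 hours, and 4 higher and 3 lower at 24 hours. All genes then split into 75 higher and 115 lower at 12 hours, and 538 and 520 at 24 hours. With quantile normalization the members split into 0 and 0 at 12 hours, and 4 higher and 5 lower at 24 hours. All genes there split into 51 higher and 143 lower at 12 hours, and 797 and 805 at 24 hours. At 72 hours 6 fell (Sdhc, Uqcrfs1, Uqcrh, Cox7a2, Cox10 and Atp5g3) and 0 rose, against 5.22% and 6.39% of all genes, with medians of -0.42 for members and -0.10 for all genes. By an unadjusted p under 0.05 in limma 1 member was higher and 18 lower at that time, again without a share of all genes to compare. Adjusted p-values of the called members ran from 0.0184 to 0.0493 at 12 hours, from 0.00798 to 0.0485 at 24 hours and from 0.0039 to 0.0372 at 72 hours. Without A3278, which shares the code of the controls, 22 members fell and 1 rose at 72 hours, against 1501 and 989 of all genes. Without A3264, A3281, or control mouse A3259 or A3280 only 1 member passed. The calls over all genes were 574, 478, 573 and 496 without these mice in turn. The fit with the column code as a term called 0 members at 12 hours and 0 at 72 hours. Over all 10868 genes it called 9 at 12 hours, and 322 higher and 54 lower at 72 hours. Among members in that fit, an unadjusted p under 0.05 in limma held for 3 higher at 12 hours and 3 lower at 72 hours. The F test over the 5 groups passed for 46 of 50 members and for 71.3% of all genes, the exceptions being Cox6b2, Cox19, Atp5s and Cox4nb.

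Most members differed between 7 days and 72 hours. In that step 36 of 50 members fell and 1, Cox6a1, rose, while 22.3% of all genes fell and 22.6% rose. The median member moved by -1.07, and in this step 4 of 4 members of complex II, 7 of 8 of complex III, 10 of 15 of complex IV and 12 of 15 of complex V fell. At 24 against 12 hours Cox7a2 was lower and Cox11 higher, where 0.57% and 3.35% of all genes were. At 72 against 24 hours Cycs, Atp5g3 and Atp5k were lower and 0 members higher, against 2.57% and 7.67% of all genes. By an unadjusted p under 0.05 in limma 10 members were lower and 0 higher, and all genes were not counted in that way.

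Columns that share a code allow the same step to be read within a code, 1 or 2 columns on each side, with A3264, A3281 and A3283 standing in more than 1 code. At 7 days against 72 hours, 46, 46 and 38 of 50 members were lower within the 3 codes that both groups share, with medians of -0.95, -1.04 and -0.55, where all genes had medians of 0.17, 0.05 and 0.08. Of all genes 40.8%, 47.4% and 45.3% were lower within these codes. In all 3 codes 38 members were lower, and Cox6a1, Cox6b2 and Cox4nb were higher in each. How many of all genes were lower in all 3 was not counted. Against 12 hours, 47 and 46 members were lower at 7 days within the 2 codes that those groups share. The medians were -1.26 and -1.21, where all genes had medians of 0.39 and 0.23 and 29.6% and 37.9% of them were lower. Within the code of the controls, A3278 at 72 hours stood below the mean control in 24 members and above it in 26. Its median was 0.01 over members and 0.09 over all genes, of which 41.0% were lower. Its lowest member was Atp5g3, at -0.81. With the code as a term and the mouse as a block, 37 members fell from 72 hours to 7 days and 2 rose (Cox6a1 and Cox6b2). Of all 10868 genes 2206 fell and 3272 rose in that fit. Of the 37 members called without the code term, 36 passed with it.

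**Figure D4:**
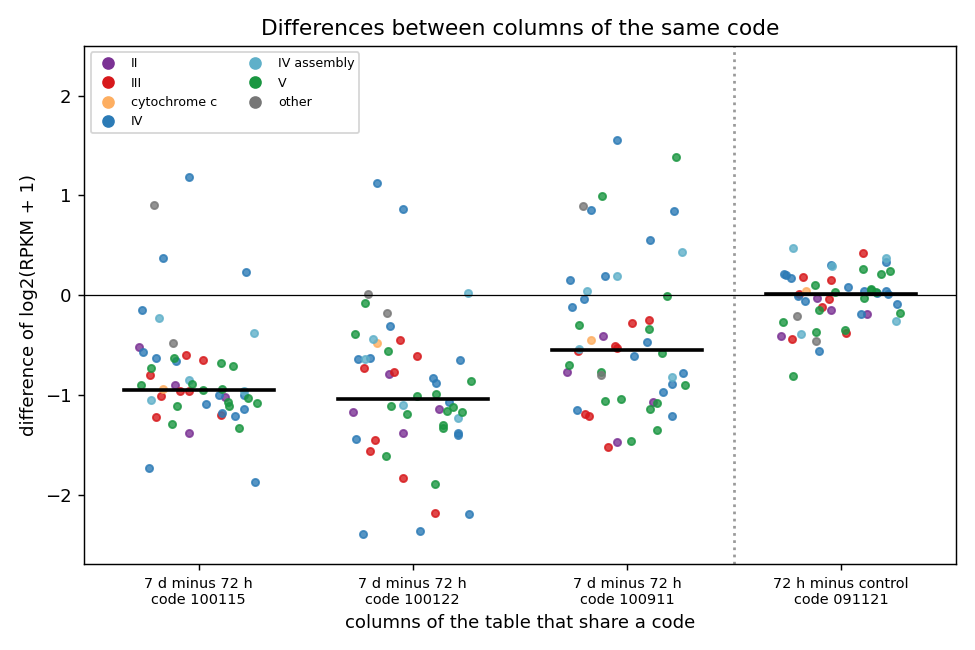
Differences of log2(RPKM + 1) (vertical axis) between columns that share a code, with 1 point per tested gene coloured by complex and a black bar at the median over genes. The medians of 7 days minus 72 hours are -0.95, -1.04 and -0.55 in 3 codes, and that of the 72 hour mouse A3278 minus the controls is 0.01.

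Repeat columns of the same mouse bear on how firmly single small subunits can be read. In A3264 at 72 hours and A3283 at 7 days, 5 and 6 of 50 members differed by over 2-fold between their 2 columns, and both mice have the same pair of codes. Atp5k had 131 and 544 RPKM in the 2 columns of A3264, and 49.2 and 299 RPKM in those of A3283. In these mice the 18 members with a coding length under 300 bases had median log2 differences of 0.50 and 0.41, and the 12 with 800 bases or more -0.09 and -0.09. In A3262 at 24 hours 1 of 50 members differed by over 2-fold, Atp5g2, with 209 and 519 RPKM, and the value of A3262 given above for that gene is their mean. The short and the long members had medians of 0.15 and 0.19 in that mouse. In A3281 and A3345 the largest differences were -0.60 for Atp5d and 0.61 for Uqcrb. The medians of the short and the long members were -0.06 and 0.003 in A3281, and -0.30 and -0.10 in A3345. A mouse entered each test as the mean of its columns.

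**Figure D5:**
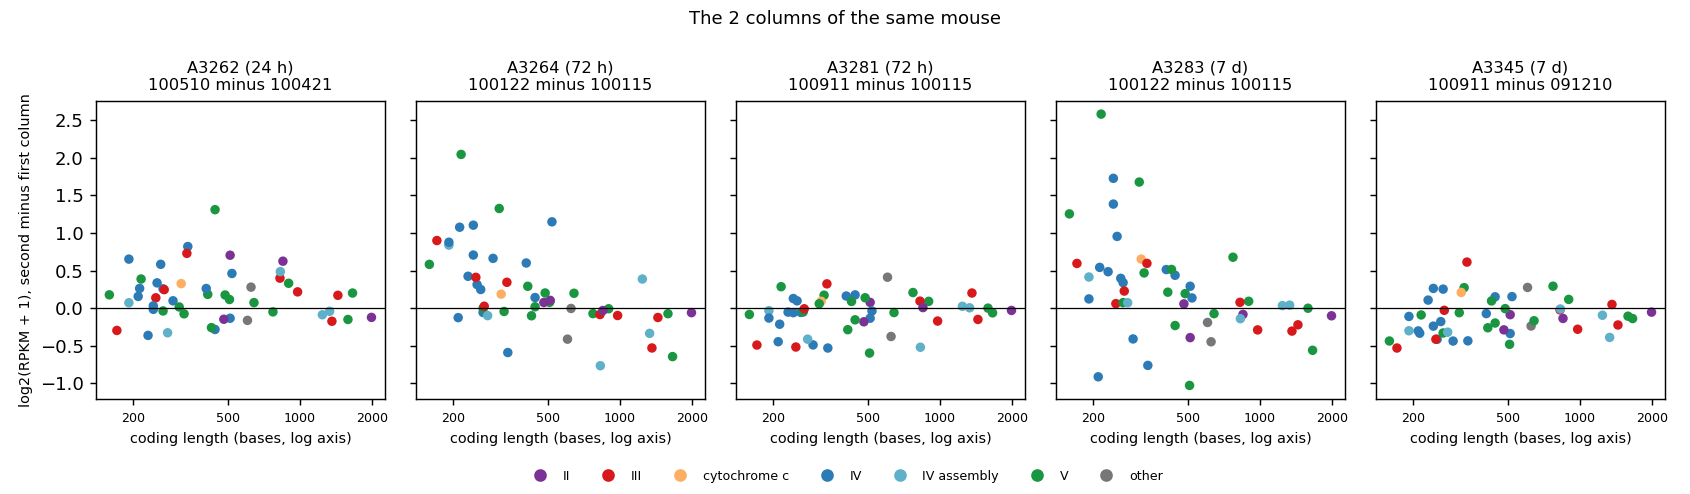
Difference of log2(RPKM + 1) between the second and the first column of the same mouse (vertical axis) against coding length in bases (horizontal log axis), 1 panel for each of the 5 mice with 2 columns and 1 point per tested gene, coloured by complex. In A3264 and A3283 short genes scatter up to 2.05 and 2.58, both Atp5k, while genes of 800 bases or more centre on -0.09.

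Genes that serve these complexes under other names are given next, to be read against the 28.2% of all genes that fell and the 26.7% that rose at 7 days. Of 20 assembly factors of complexes II to V, 15 fell and 1 rose, with a median of -0.87. Ccdc44, the later Taco1, an activator of Cox1 translation, was at -1.97 ± 0.18, Bcs1l, which inserts the Rieske protein, at -1.79 ± 0.20, and Atpaf2 and Tmem70, which serve complex V, at -1.58 ± 0.19 and -1.18 ± 0.16. At 12 hours 1 of the 20 rose and 2 fell, against 0.524% and 12.7% of all genes. At 24 hours 3 rose and 2 fell, against 5.38% and 10.6%. At 72 hours 2 rose and 0 fell, against 6.39% and 5.22%. Cox20, an assembly factor of complex IV listed as 2310005N03Rik, rose at 12, 24 and 72 hours (1.66 ± 0.37, 2.24 ± 0.37 and 1.28 ± 0.37). Ttc19 and Chchd8 fell at 12 hours (-2.49 ± 0.63 and -0.68 ± 0.20). At 24 hours 6330578E17Rik rose (1.52 ± 0.30), while Atpaf2 and Oxa1l fell (-0.73 ± 0.19 and -0.60 ± 0.17). Surf1 rose at 72 hours (0.65 ± 0.18). All controls have the same code, and for these early calls no result with the code as a term or with a mouse left out is given. Of 6 tested subunits and factors that the rule does not match, 4 fell and 0 rose at 7 days, at a median of -1.06, among them Ndufa4, a subunit now placed in complex IV (-1.15 ± 0.25), and Higd1a (-1.08 ± 0.22). Of 9 regulators of mitochondrial biogenesis 4 fell and 0 rose at 7 days, at a median of -0.37 where all genes were at -0.03, the nuclear receptors Esrrg (-1.68 ± 0.17), Esrra (-1.61 ± 0.23) and Ppara (-1.58 ± 0.26) and the coactivator Ppargc1b (-0.62 ± 0.18). Of 14 genes of mitochondrial DNA maintenance and transcription 8 fell and 0 rose, at a median of -0.63, among them Peo1, the later Twnk helicase (-1.46 ± 0.17), and the polymerase Polg (-1.41 ± 0.18). These values use the same control mice as those of the members.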

How the data were processed

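Polyadenylated RNA of mouse ventricles was sequenced. The authors deposited 1 table of RPKM for 20 columns, aligned with TopHat and Bowtie to mm9 per the submitters' processing notes; the counting tool and read strand are not stated there. RPKM values are not counts, so no count test was used. A mouse with 2 columns (5 mice) entered as their mean. Genes with a mean of at least 1 RPKM were kept, and log2(RPKM + 1) of all 15 mice in 5 groups was fitted with limma 3.58.1 (R 4.3.3, eBayes with trend, 10 residual degrees of freedom). Adjusted p-values are Benjamini-Hochberg over 10868 genes within a comparison, with a threshold of 0.05. A fold on this scale understates changes of low genes. The p-values measure the spread between mice, 3 per group. Depth was estimated from the steps between low RPKM values of 90 olfactory receptor genes, an approach tested on simulated data.

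The members and all gene lists were chosen with earlier results of these data known. The rule for named genes takes every member, with values in every mouse for members past the F test or a contrast, for the highest member of each complex and for paralog pairs. Values in all 15 mice are printed for a part of these and at 7 days and in controls for the rest. From the lists, up to 4 genes per list and time past a contrast qualify. Alternatives were a pseudocount of 0.1, no filter, a minimum mean of 5 RPKM, median-ratio scaling, quantile normalization, a correction for GC content (lowess, span 0.3, 10819 genes), the 2 groups alone, only the first column of a mouse, the code of the columns as a term (16 columns, no 24 hour mice, mouse as a block), and the omission of each mouse. Alternatives for steps, isoform ratios and sums were added after the data were seen. Locations are from GENCODE on NCBIM37, copies were searched with BLAST 2.17.0, and promoter windows are from RefSeq on GRCm38.p6.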

Additional observations from a re-analysis of the deposited data

Results flagged for a closer look

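For 8 members the differences from control at 2 successive times had opposite signs and the step between the times passed limma's test of that difference, with p-values adjusted over all genes tested. The codes of the 24 hour mice occur in no other group.

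Cox7a2 stood at -1.02 at 24 hours and 0.24 at 12 hours, a step of -1.26 (adjusted p 0.0239). Cox11 stood at 0.67 at 24 hours and -0.33 at 12 hours, a step of 1.001 (adjusted p 0.0467), and at -0.84 at 7 days and 0.30 at 72 hours, a step of -1.14 (adjusted p 0.0025). Cycs stood at -0.05 at 72 hours and 0.55 at 24 hours, a step of -0.61 (adjusted p 0.0155). Atp5k stood at -1.19 at 72 hours and 0.45 at 24 hours, a step of -1.64 (adjusted p 0.0392).

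Between 7 days and 72 hours, Cox6a1 stood at 0.38 at 7 days and -0.35 at 72 hours, a step of 0.73 (adjusted p 0.0286). Cox15 stood at -0.97 at 7 days and 0.10 at 72 hours, a step of -1.07 (adjusted p 0.000263). Atp5h stood at -1.01 at 7 days and 0.21 at 72 hours, a step of -1.22 (adjusted p 4.65e-05), and Atp5j at -0.74 at 7 days and 0.09 at 72 hours, a step of -0.83 (adjusted p 0.00998).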

How the results depend on the processing

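At 7 days 26 of the 45 calls held under each of the 24 alternatives, and in the step from 72 hours to 7 days 29 of 37 did. None of the calls at 12, 24 or 72 hours did. Members called numbered 5 at 12 hours, and 1 with no filter, 0 with quantile normalization, 2 with the GC correction, 15 with the 2 groups alone, 2 with the first column of each mouse, 0 with the column code as a term and 0 to 7 with a mouse left out. At 24 hours they numbered 9, and 4 with no filter, 16 with the 2 groups alone, 5 with the first column and 0 to 17 with a mouse left out. At 72 hours they numbered 6, and 1 with the first column, 0 with the code term and 1 to 23 with a mouse left out. At 7 days they numbered 45, and 28 with the code term, where Uqcrb turned to -0.58 and Cox8a to 0.14; at 12 hours Cox8a turned to 0.29. The 2 calls of the step from 12 to 24 hours became 1 with a pseudocount of 0.1, 0 with no filter, 5 with the GC correction, 0 with the 2 groups alone, 0 with the first column and 0 to 4 with a mouse left out. The 3 calls from 24 to 72 hours became 6 with the GC correction, 0 with the 2 groups alone and 1 to 5 with a mouse left out. Calls over all genes moved as well. At 12 hours they numbered 1432, and 9 with the code term, 194 with quantile normalization and 3244 with the 2 groups alone. The cause was not tested.

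With the first column the Cox8b to Cox8a ratio stood at 0.094 at 72 hours and -1.49 at 7 days. With a mouse left out it ran from -1.34 to -1.22 at 7 days, the Cox6a2 to Cox6a1 ratio from -2.94 to -2.82 at 7 days, and the Atp5g1 to Atp5g3 ratio from -0.23 to 0.017 at 12 hours. Median-ratio scaling gave sums of 119% of control at 12 hours and 100.3% at 24 hours. No paired analysis was possible because mouse numbers are not shared between groups. The code of the controls in 1 induced mouse limits how far code and group can be told apart.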
